A study of Mus musculus with 16 samples.

Results

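The genes described here are 38 genes of glycolysis and of the response to low oxygen, taken from a list of names and matched by symbol to the deposited table. All 38 were found among 48709 gene features with deposited counts. They were divided by role into 18 genes of glycolytic enzymes and lactate dehydrogenase subunits, 5 genes for pyruvate dehydrogenase kinase 1 and for glucose and monocarboxylate transporters, and 15 genes for other hypoxia targets and regulators of hypoxia-inducible factor (HIF). The RNA came from developing salivary glands of wild-type ICR mice, an outbred laboratory stock, at embryonic day 13. The submandibular and the parotid gland, 2 of the major salivary glands, were each separated into epithelium, which branches and later secretes saliva, and the mesenchyme around it. Each of the 4 groups had 4 libraries of bulk RNA, which the labels call independent biological replicates, and every group shared the same strain, genotype and age. The labels do not say how many embryos each library pooled. The series' design text also mentions a culture period, while the sample protocols describe harvested tissue, and which of these applies to each library was not settled here. The question the design poses for these genes is how their expression differed between the 2 glands within a layer and between the 2 layers within a gland.

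Glycolysis splits glucose into pyruvate in the cytosol, and lactate dehydrogenase converts pyruvate to lactate and back. HIF is a transcription factor whose alpha subunit is hydroxylated by oxygen-dependent prolyl hydroxylases and then degraded, so that it accumulates when oxygen is scarce. It binds short DNA elements with the core letters ACGTG or GCGTG and raises the transcription of most glycolytic enzyme genes, of glucose and lactate transporters, of Pdk1, which keeps pyruvate out of the mitochondrial citric acid cycle, and of genes for vessel growth and mitochondrial turnover. The same glycolytic genes are also under other controls, such as MYC, and are highly expressed in many proliferating embryonic tissues.

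Gene counts per library summed to between 16912258 and 27646844, and all 38 genes were among the 18191 that passed the filter on low counts. Levels are given as CPM, which are gene counts scaled to a common normalised library size, as mean ± SD over the 4 libraries of a group. A gene is called higher or lower where its adjusted p was under 0.05 (the quasi-likelihood test of edgeR, adjusted after Benjamini and Hochberg over all genes tested), and differences between groups are log2 fold changes from that fit. The layers carried their labelled markers: all 10 epithelial markers, such as Epcam and Cdh1, were called higher and all 10 mesenchymal markers, such as Pdgfra and Col1a1, lower in the epithelium of both glands. The summed mesenchymal markers were 136 to 391 CPM in the parotid and 44.2 to 297 CPM in the submandibular epithelium, against at least 12795 CPM in the mesenchymes. The submandibular libraries carry library numbers 9 to 16 and the parotid ones 26 to 33, so a difference between glands and a difference between these number blocks cannot be told apart. Among the epithelial libraries, replicate 3 of the submandibular group had the highest level of 32 of the 38 genes within its group and replicate 2 of the parotid group the highest level of 26. Such counts were not made over all genes, so they are not shown to be particular to the 38. That submandibular library also had the most summed mesenchymal marker counts of its group, 297 CPM, while the parotid library had the fewest of its group, 136 CPM. Whether tissue purity had a part in these levels was not tested.

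Both epithelia had more glycolytic enzyme RNA than the mesenchyme around them. The 18 enzyme genes summed to 12896 to 15004 CPM in the parotid epithelium and 4842 to 5566 CPM in the parotid mesenchyme, and to 7951 to 10571 CPM in the submandibular epithelium and 3645 to 3840.2 CPM in the submandibular mesenchyme. No epithelial library overlapped a mesenchymal one. The group means were 13469.6 ± 1025, 9262 ± 1084, 5166 ± 299 and 3774 ± 87.6 CPM in the parotid epithelium, submandibular epithelium, parotid mesenchyme and submandibular mesenchyme (SD, n = 4), and no group overlapped another. Abundant genes weigh most in these sums. Pkm, Ldha and Eno1 had means of 3643, 2743 and 2193 CPM in parotid epithelium, and Ldhb 793 CPM in submandibular mesenchyme. In bulk RNA, fewer cells with these transcripts and less RNA per cell cannot be told apart. The 5 genes of Pdk1 and the transporters kept the layers apart as well, with 666 to 919 CPM in the parotid and 499 to 709.6 CPM in the submandibular epithelium against 288 to 319 and 213 to 266 CPM in the respective mesenchymes. The 15 hypoxia targets and HIF regulators differed less between the layers: they summed to 1421 to 1735 and 1039.9 to 1389 CPM in the epithelia and 1126 to 1217 and 928 to 1029.7 CPM in the mesenchymes, and submandibular epithelium overlapped parotid mesenchyme.

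**Figure D1:**
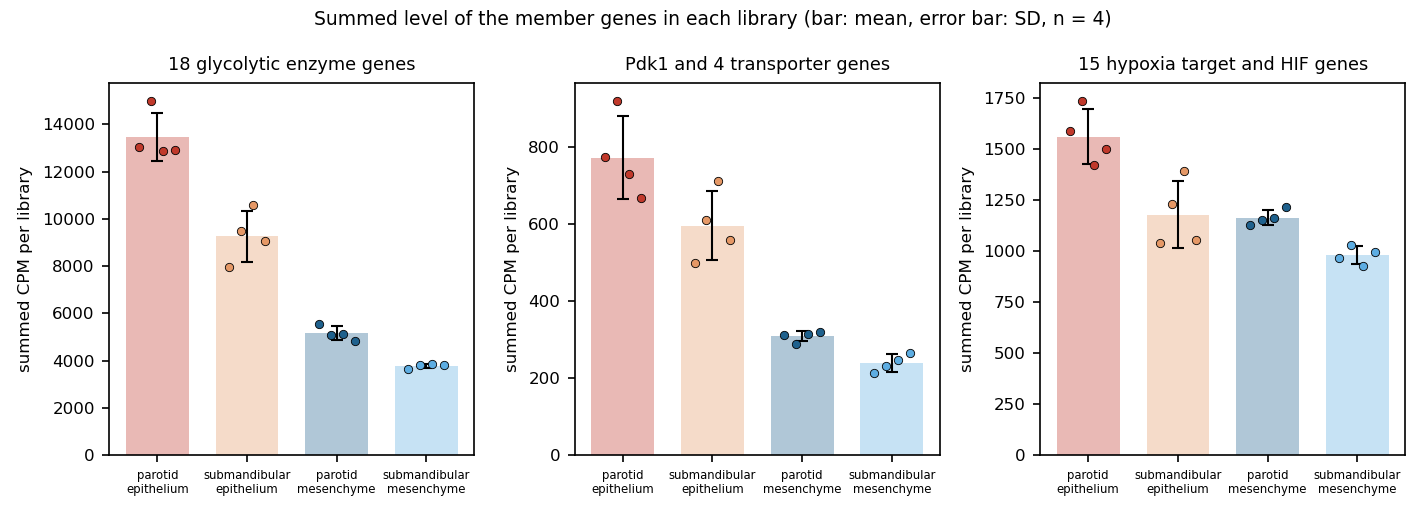
Summed CPM of the 18 enzyme genes, the 5 genes of Pdk1 and the transporters, and the 15 hypoxia targets and HIF genes (y axes) in the 4 groups (x axes), with a point for each library, bars for the group mean and error bars for the SD. The enzyme sums of the epithelia lie above those of the mesenchymes, from 7951 CPM upward against at most 5566 CPM, and the third panel shows the hypoxia targets overlapping between submandibular epithelium and parotid mesenchyme.

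In the comparison of layers within the parotid gland, 22 of the 38 genes were higher and 8 lower in epithelium. Of all genes, 64.9% were called there, 31.4% higher and 33.5% lower. In the submandibular gland 21 were higher and 10 lower, beside 67% of all genes called, 33.3% higher and 33.7% lower. The same 20 genes were called higher in both glands and the same 7 lower, and no gene was called in opposite directions. This overlap was not counted over all genes, so it is not shown to be particular to the 38. The median log2 fold change of the 38 genes was 0.60 in parotid and 0.57 in submandibular gland, with medians over all genes of -0.0044 and 0.014. By role, 12 enzyme genes were higher and 5 lower in the epithelium of the parotid gland, and 11 and 5 in that of the submandibular gland, with list medians of 1.15 and 1.16. Of the 5 genes of Pdk1 and transport, the same 4 were higher in both glands, and the remaining Slc2a3 was not called in the parotid gland and lower in the submandibular gland. Of the 15 hypoxia targets and HIF regulators, 6 were higher and 3 lower in the parotid gland, 6 higher and 4 lower in the submandibular gland, with a list median of 0.32 in each. All 15 proliferation genes examined, such as Mki67 and Top2a, were also higher in both epithelia and summed to 4328 to 4604 and 4332 to 4618 CPM against 1548 to 2515 and 1912 to 2248 CPM in the mesenchymes, and all 10 endothelial and all 10 macrophage markers were lower. The part of these in the layer differences of the glycolytic genes was not tested.

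The enzymes of the main path from glucose to lactate were mostly higher in epithelium. Pkm, which encodes pyruvate kinase of most embryonic tissues, was at 3643 ± 143 CPM in the parotid epithelium against 1154 ± 76.1 CPM in mesenchyme, and at 2392 ± 246 against 701 ± 70.1 CPM in the submandibular gland. Tpi1, Gapdh, Pgk1 and Pgam1, which act in order in the later steps of the pathway, had layer log2 fold changes of 1.18, 1.22, 1.35 and 1.12 in parotid gland and 1.20, 1.50, 1.68 and 1.29 in submandibular gland, all called. Gpi1, the isomerase after hexokinase, was also higher in both epithelia, by 0.62 and 0.65. Aldoa, the aldolase of most tissues, was higher in parotid epithelium at 772 ± 100.1 against 465 ± 21.2 CPM, while in submandibular gland it was at 438 ± 97.5 and 399 ± 27.7 CPM and was not called, with a log2 fold change of 0.14 (SE 0.13, adjusted p = 0.366). Pfkfb3, whose product makes the activator of phosphofructokinase, was called in neither gland, with layer log2 fold changes of 0.33 and 0.57.

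Several enzymes are encoded by more than 1 gene, and the members of these pairs were divided between the layers. Ldha (chr7:46841475-46855627 on GRCm38, plus strand), for the lactate dehydrogenase subunit common in muscle and in rapidly growing cells, read 2846, 3221, 2390.4 and 2516 CPM in the 4 parotid epithelial libraries, 1060.1, 857, 877 and 810.4 CPM in the parotid mesenchyme, 1665, 1896, 2274 and 1799.9 CPM in the submandibular epithelium and 239.6, 271, 308 and 349.6 CPM in the submandibular mesenchyme. Every epithelial library was above every mesenchymal one, and submandibular mesenchyme stood apart below all others. The layer log2 fold change was 1.61 (SE 0.13, adjusted p = 1.42e-08) in parotid and 2.71 (SE 0.14, adjusted p = 4.13e-11) in submandibular gland by edgeR's test. Ldhb (chr6:142490249-142507957, minus strand), for the subunit common in heart, read 194, 164, 171 and 161 CPM in the parotid epithelium and 189.7, 245, 249.6 and 266 CPM in the parotid mesenchyme. In the submandibular gland it read 214, 190.4, 226 and 156 CPM in epithelium and 965, 907, 734 and 567 CPM in mesenchyme. Ldhb was thus high in submandibular mesenchyme alone of the 4 groups, with no overlap with any other, and its layer log2 fold change was -2.01 (SE 0.16, adjusted p = 7.1e-09) there and -0.46 (SE 0.15, adjusted p = 0.0138) in the parotid gland.

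Eno1 encodes the widespread enolase and Eno2 the one known from neurons. Eno1 read 2143, 2293, 2169.8 and 2168 CPM in the parotid epithelium, 1132, 1500.3, 1573 and 1348 CPM in the submandibular epithelium, 707, 709, 676 and 547 CPM in the parotid mesenchyme and 218, 256, 281 and 324 CPM in the submandibular mesenchyme. The 4 groups did not overlap. Eno2 went the other way: it was at 1.87, 0.938, 0.99 and 1.69 CPM in the parotid epithelium and 0.431, 0.403, 0.849 and 0.623 CPM in the submandibular epithelium, but 9.93, 8.55, 13.3 and 10.1 CPM in the parotid mesenchyme and 13.2, 14.6, 12.6 and 14.1 CPM in the submandibular mesenchyme. Its layer log2 fold changes were -2.93 (SE 0.25, adjusted p = 2.85e-08) and -4.58 (SE 0.28, adjusted p = 3.45e-10) by edgeR's test. All 8 mesenchymal libraries were above all 8 epithelial ones for Eno2. The 10 neuron markers, such as Tubb3 and Elavl4, summed to 484 to 941 and 134 to 329 CPM in the mesenchymes of parotid and submandibular gland and 39.6 to 54.2 and 30.4 to 40.8 CPM in the epithelia, and their part in the Eno2 difference was not tested.

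Hexokinase traps glucose as its phosphate. Hk2 read 76.5, 91.8, 76.4 and 72.9 CPM in the parotid epithelium, 49.6, 58.6, 66.2 and 72.5 CPM in the submandibular epithelium, 32.7, 19.7, 18.6 and 17.1 CPM in the parotid mesenchyme and 24.9, 29, 28.4 and 30.4 CPM in the submandibular mesenchyme, so that both epithelia were above both mesenchymes. Hk1 showed the reverse order of layers, at 50.3 ± 12.2 and 27.9 ± 6.59 CPM in the epithelia and 124 ± 10.4 and 75.4 ± 11.4 CPM in the mesenchymes. The layer log2 fold changes were 1.85 for Hk2 and -1.30 for Hk1 in the parotid gland and 1.13 and -1.44 in the submandibular gland, all called.

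The genes for the phosphofructokinase subunits, which set the committed step, were likewise split. Pfkl, the liver-type subunit, read 676, 1037, 914 and 811 CPM in the parotid epithelium and 189, 181, 158 and 158 CPM in the parotid mesenchyme. In the submandibular gland Pfkl read 307, 417, 523 and 496 CPM in epithelium and 131, 149.7, 143 and 158 CPM in mesenchyme. Both epithelia were above both mesenchymes in every library, with layer log2 fold changes of 2.33 (SE 0.15, adjusted p = 1.07e-09) and 1.58 (SE 0.15, adjusted p = 7.57e-08). Pfkp, the platelet-type subunit, read 11.7, 14.2, 9.57 and 9.44 CPM in the parotid epithelium, 36.2, 36.8, 24.5 and 25.4 CPM in the parotid mesenchyme, 2.48, 4.07, 5.3 and 3.63 CPM in the submandibular epithelium and 9.8, 11.7, 12.9 and 14.2 CPM in the submandibular mesenchyme. The layers of each gland were apart, while parotid epithelium overlapped submandibular mesenchyme. Pfkp was lower in the epithelium of both glands, with log2 fold changes of -1.45 and -1.66, and Pfkm, the muscle-type subunit, was lower too, with -0.81 and -1.60. Aldoc, the brain-type aldolase, read 14.5, 32.6, 25.5 and 30.7 CPM in the parotid epithelium and 8.23, 14.8, 15.3 and 13.3 CPM in the submandibular epithelium. In the mesenchymes Aldoc read 2.95, 4.82, 1.82 and 3.22 CPM in the parotid and 1.38, 2.3, 1.6 and 1.52 CPM in submandibular gland, apart from the epithelia, and its layer log2 fold changes of 3.02 and 2.92 were both called.

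**Figure D2:**
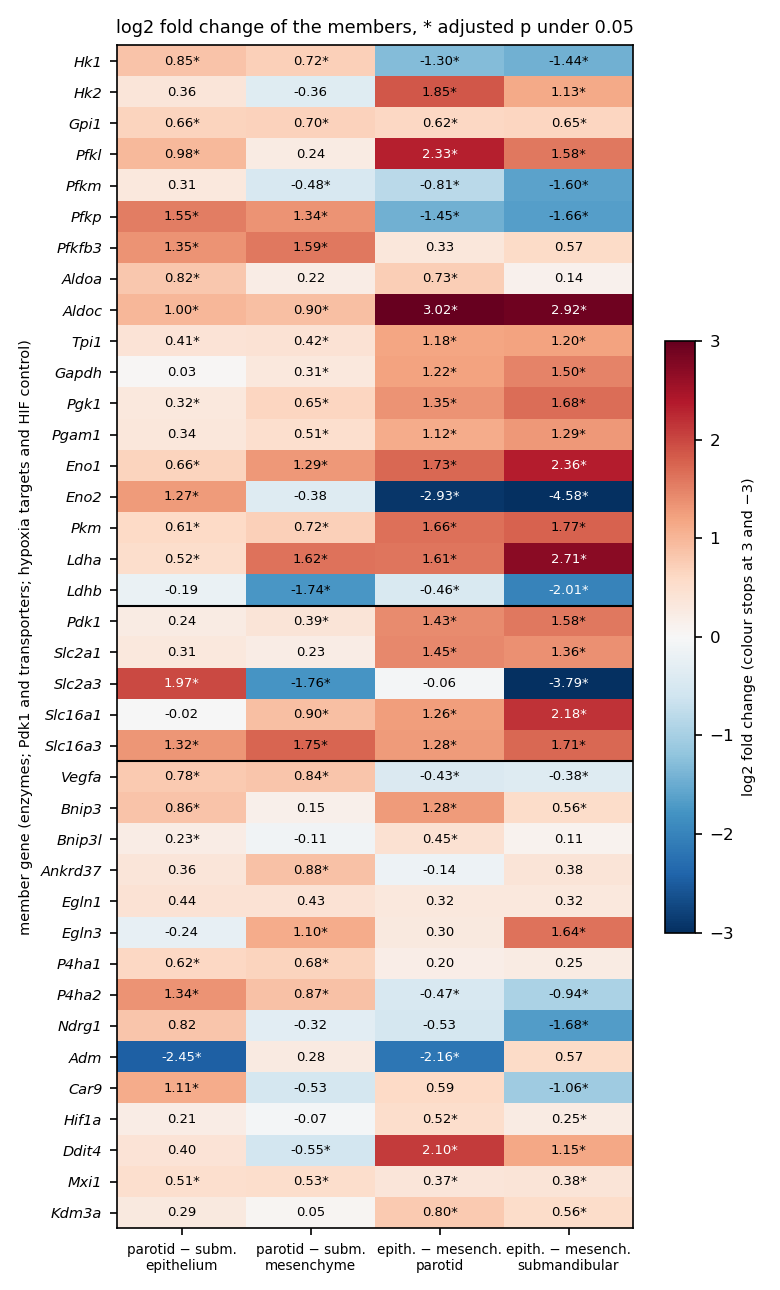
Log2 fold changes of the 38 genes (rows) in the 4 comparisons of groups (columns), with an asterisk where edgeR's adjusted p was under 0.05. Lines divide the enzymes, Pdk1 and the transporters, and the hypoxia targets, and the right-hand columns show Ldha, Eno1, Hk2, Pfkl and Aldoc higher in epithelium while Eno2, Hk1, Pfkp and Pfkm were lower, for example 2.36 for Eno1 and -4.58 for Eno2 in the submandibular gland.

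Ratios of such pairs within a library do not depend on scaling. Over 10 pairs and the 4 comparisons, 40 ratio tests were made by a two-sided exact permutation test, whose smallest p with 4 libraries against 4 is 0.0286, or 0.0394 after Benjamini-Hochberg adjustment over the 40. At that smallest value were 8 of 10 pairs in the parotid layers, 9 in the submandibular layers and 6 in each comparison of glands, 29 in all. Of single genes, 64.9% and 67% were called between these layers, and 20.9% and 34.5% between the epithelia and the mesenchymes. Ratios of other gene pairs were not counted, so these numbers are not shown to be particular to the 10 pairs. The count ratio of Ldha to Ldhb was 14 to 19.6 in parotid epithelium, 7.8 to 11.5 in submandibular epithelium, 3.05 to 5.59 in parotid mesenchyme and 0.248 to 0.617 in submandibular mesenchyme. Submandibular mesenchyme was the one group with more Ldhb than Ldha counts in every library. The ratio was 10.2-fold higher in parotid than in submandibular mesenchyme and 26.1-fold higher in submandibular epithelium than in its mesenchyme (exact permutation test, adjusted p = 0.0394 for each). Counts per kilobase used the union of annotated exons, which can be longer than the transcript made, so they compare different genes only roughly. By this measure Ldha had the highest mean of the 38 in parotid epithelium at 829 ± 112 CPM per kb. The same held in submandibular epithelium at 577 ± 78.9 and in parotid mesenchyme at 272 ± 33.1. Ldha overlapped Pkm in both epithelia, at 722 to 973 against 698 to 761 CPM per kb in parotid and 503 to 687 against 409 to 522 in submandibular epithelium. In submandibular mesenchyme the highest was Ldhb at 505 ± 115 CPM per kb, where Ldha was at 88.3 ± 14.3.

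The Hk1 to Hk2 ratio was 0.479 to 0.71 in parotid and 0.377 to 0.497 in submandibular epithelium, against 3.63 to 7.83 and 2.53 to 2.98 in the mesenchymes, so the more abundant hexokinase by counts was Hk2 in every epithelial library and Hk1 in every mesenchymal one. Eno1 to Eno2 had geometric mean ratios of 1646 and 2409.6 in parotid and submandibular epithelium and 63.4 and 19.6 in the mesenchymes. Pfkl to Pfkm had 24.2 and 15.1 in the epithelia and 2.77 and 1.68 in the mesenchymes. For these 3 pairs the layers were apart in both glands. Pfkl to Pfkp and Aldoa to Aldoc were also apart between the layers of both glands, in opposite directions: the first was 13.5-fold and 9.45-fold higher in parotid and submandibular epithelium, and the second was 4.91-fold and 6.88-fold higher in mesenchyme. In epithelium, the gland difference missed the threshold for Hk1 to Hk2, at 1.4-fold (exact permutation test, adjusted p = 0.0693), for Aldoa to Aldoc (adjusted p = 0.692) and for Eno1 to Eno2 (adjusted p = 0.216).

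**Figure D3:**
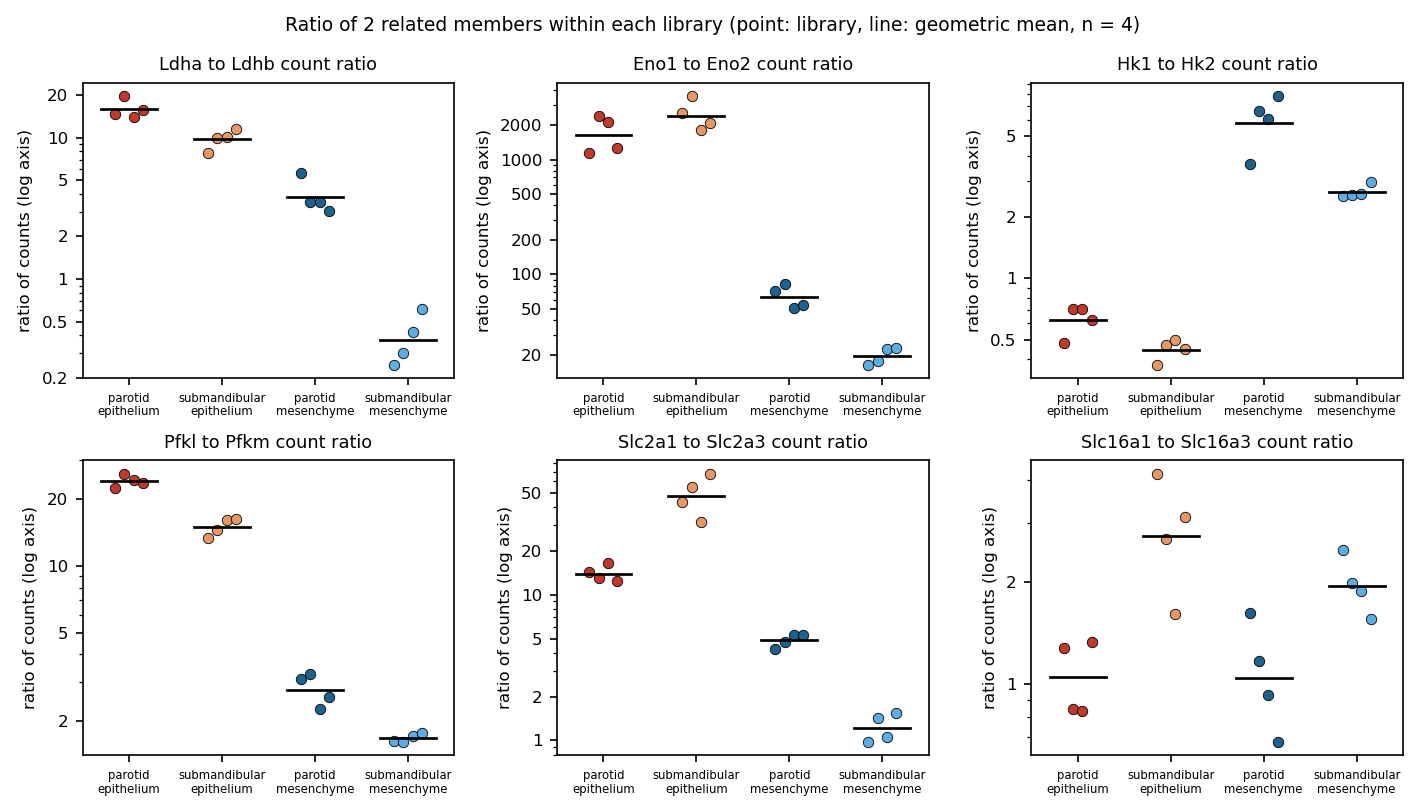
Ratio of the counts of 2 related genes (y axes, logarithmic) in each library of the 4 groups (x axes), with lines for the geometric mean, for 6 of the 10 pairs tested. Ldha to Ldhb falls below 1 only in submandibular mesenchyme, with a geometric mean of 0.372, and Slc2a1 to Slc2a3 runs from 47.5 in submandibular epithelium to 1.23 in submandibular mesenchyme.

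Glucose enters through facilitative transporters, and lactate leaves or enters through monocarboxylate transporters. Slc2a1, the widespread glucose transporter, was higher in both epithelia, at 206 ± 41.9 and 166 ± 47.8 CPM against 75.6 ± 2.91 and 64.6 ± 10.4 CPM. Slc2a3 (chr6:122727809-122801640, minus strand), a high-affinity glucose transporter known from neurons, read 14.8, 20.2, 11.2 and 13.2 CPM in the parotid epithelium, 17.2, 15.4, 14.4 and 14.9 CPM in the parotid mesenchyme, 3.06, 2.9, 7.48 and 1.98 CPM in the submandibular epithelium and 54.8, 44.7, 59.3 and 51.1 CPM in the submandibular mesenchyme. It was highest in submandibular mesenchyme and lowest in submandibular epithelium, while the parotid layers overlapped. The layer log2 fold change of Slc2a3 was -3.79 (SE 0.31, adjusted p = 1.38e-08) in the submandibular gland and -0.06 (SE 0.28, adjusted p = 0.856) in the parotid gland. Slc16a1, a lactate transporter working in either direction, read 171, 158, 141 and 149.7 CPM in the parotid epithelium, 164, 154, 151 and 157 CPM in the submandibular epithelium, 83.7, 64.9, 58.4 and 51.6 CPM in the parotid mesenchyme and 31.2, 31.3, 34.3 and 41.7 CPM in the submandibular mesenchyme. The epithelia overlapped each other and lay above both mesenchymes, which did not overlap each other. Slc16a3, the lactate exporter of glycolytic cells, read 133, 187, 168 and 113 CPM in the parotid epithelium, 39.3, 57.3, 93.2 and 50.5 CPM in the submandibular epithelium, 51.7, 55.6, 63.1 and 76.3 CPM in the parotid mesenchyme and 12.5, 15.7, 18.2 and 26.8 CPM in the submandibular mesenchyme. Slc16a3 was thus lowest in submandibular mesenchyme and highest in parotid epithelium, and the other 2 groups lay between and overlapped each other. Pdk1 was higher in both epithelia, by log2 fold changes of 1.43 and 1.58.

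Among the other hypoxia targets, Ddit4, an inhibitor of the growth kinase complex mTORC1, had the largest difference with more RNA in epithelium in the parotid gland, at 2.10 on the log2 scale, and was 1.15 higher in the submandibular gland. It read 116, 151, 103 and 105 CPM in the parotid epithelium, 65.7, 93.1, 123 and 78.4 CPM in the submandibular epithelium, 25.6, 29, 32.5 and 23.4 CPM in the parotid mesenchyme and 30.9, 41.6, 39.5 and 50.2 CPM in the submandibular mesenchyme, with the layers apart in both glands. Egln3, a HIF prolyl hydroxylase that is itself induced by HIF, had the largest such difference in the submandibular gland, at 1.64 (SE 0.24, adjusted p = 1.45e-05) by edgeR's test, and was not called between the parotid layers, at 0.30. Kdm3a, a histone demethylase, Mxi1, an antagonist of MYC, and Bnip3, a mitophagy receptor, were also higher in both epithelia, by 0.80, 0.37 and 1.28 in the parotid gland and 0.56, 0.38 and 0.56 in the submandibular gland. The call for Bnip3 in the submandibular gland was lost without replicate 3 of its epithelium (adjusted p = 0.0647). Bnip3l, the related receptor, was higher in parotid epithelium, at 178 ± 6.65 against 129.9 ± 9.22 CPM, and was at 151 ± 16.4 and 140.1 ± 5.17 CPM in the submandibular layers. Hif1a, the oxygen-regulated subunit itself, was at 357 ± 37.2 and 248 ± 6.63 CPM in the parotid epithelium and mesenchyme (log2 fold change 0.52) and at 308 ± 19.1 and 259.9 ± 33.9 CPM in the submandibular layers. The submandibular difference for Hif1a, 0.25, was called (adjusted p = 0.0279) but lost the call under 14 of the other settings, with adjusted p up to 0.229. HIF is controlled mainly through its protein, which these data do not measure.

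Vegfa and the collagen prolyl hydroxylase gene P4ha2 were lower in the epithelium of both glands. Vegfa, the growth factor for blood vessels, was at 133 ± 18.8 and 77.5 ± 9.15 CPM in the epithelia and 179.6 ± 10.8 and 101 ± 3.58 CPM in the mesenchymes of parotid and submandibular gland. P4ha2 read 46, 33.7, 32.9 and 32.9 CPM in the parotid epithelium, 52.2, 46.6, 50.6 and 51.9 CPM in the parotid mesenchyme, 14, 14.1, 18.9 and 10.5 CPM in the submandibular epithelium and 27.4, 24.2, 26.6 and 31.9 CPM in the submandibular mesenchyme. Its layers were apart in both glands. P4ha1, its paralog, and Egln1, the main HIF prolyl hydroxylase, were called between layers in neither gland, with log2 fold changes of 0.20 and 0.25 for P4ha1 and 0.32 and 0.32 for Egln1. Ankrd37, an ankyrin repeat gene, was not called either, at -0.14 and 0.38. Ndrg1 was lower in submandibular epithelium, at 5.17 ± 3.54 against 16.4 ± 1.84 CPM, and was at 9.04 ± 1.88 and 13.1 ± 1.94 CPM in the parotid layers, where it was not called. Without replicate 3 of submandibular epithelium, or in a fit of the 8 parotid libraries alone, Ndrg1 was also called in the parotid gland (adjusted p = 0.0452 and 0.027, in that order). Adm, which encodes the vessel-dilating peptide adrenomedullin, was lower in the epithelium of the parotid gland, with a log2 fold change of -2.16 (SE 0.42, adjusted p = 0.000212), and was not called between the submandibular layers, at 0.57. Car9, a carbonic anhydrase of the cell surface and a well-known HIF target, was called lower in the epithelium of the submandibular gland, at -1.06 (SE 0.38, adjusted p = 0.0198), and not called in the parotid gland, at 0.59. Its submandibular call was lost without replicate 1 or replicate 2 of submandibular epithelium, with adjusted p between 0.059 and 0.0617.

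Between the glands, parotid epithelium had more RNA of these genes than submandibular epithelium. Of the 38 genes, 22 were higher and 1 was lower in parotid epithelium by edgeR's test, beside 20.9% of all genes called, 11.2% higher and 9.72% lower. The median log2 fold change of the 38 was 0.52 and that of all genes -0.0016. Among the 18 enzymes 13 were higher and the other 5 not called, with a list median of 0.63. Of Pdk1 and the transporters 2 were higher and the other 3 not called, and of the hypoxia targets and HIF regulators 7 were higher and 1 lower, with a median of 0.44. Leaving out each epithelial or mesenchymal library in turn gave between 19 and 28 called genes of the 38 in all.

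The enzymes with the largest difference between the epithelia were Pfkp, Pfkfb3 and Eno2. Pfkfb3 read 47.2, 45.8, 26.5 and 26.1 CPM in the parotid epithelium and 8.48, 16.3, 22.9 and 9.86 CPM in the submandibular epithelium, with no overlap and a log2 fold change of 1.35 (SE 0.28, adjusted p = 0.0031) by edgeR's test. For Pfkp the log2 fold change was 1.55 (SE 0.22, adjusted p = 0.000133) and for Eno2 1.27 (SE 0.28, adjusted p = 0.00476), the latter on levels near 1 CPM. Eno2 lost its call (adjusted p = 0.0555) when the libraries with the most erythroid counts, 1 in each epithelial group, were left out. Pfkl had 0.98, Aldoa 0.82, Gpi1 0.66, Eno1 0.66, Pkm 0.61, Ldha 0.52 and Tpi1 0.41, all called. Those differences ran through most steps of the pathway. Gapdh was at 979 ± 86.1 and 959 ± 68.3 CPM (log2 fold change 0.03) and was not called, nor were Hk2 at 0.36, Pgam1 at 0.34, Pfkm at 0.31 and Ldhb at -0.19. Pgk1, at 0.32, lost its call in 4 other settings and Aldoc, at 1.00, also in 4, all of them with libraries left out or fewer libraries fitted, with adjusted p up to 0.0859 and 0.143.

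Slc2a3 and Slc16a3 were higher in parotid than in submandibular epithelium, by log2 fold changes of 1.97 (SE 0.30, adjusted p = 0.00021) and 1.32 (SE 0.26, adjusted p = 0.00218), and Slc2a1, Slc16a1 and Pdk1 were not called, at 0.31, -0.02 and 0.24. Of the hypoxia targets, P4ha2, Bnip3, Vegfa, P4ha1 and Mxi1 were higher, by 1.34, 0.86, 0.78, 0.62 and 0.51. Adm was the 1 gene of the 38 called lower: it read 1.31, 0.375, 1.04 and 2.02 CPM in the parotid epithelium and 9.67, 5.56, 3.34 and 7.37 CPM in the submandibular epithelium. The groups did not overlap, and the log2 fold change was -2.45 (SE 0.42, adjusted p = 0.000557). In the mesenchymes Adm read 4.94, 5.04, 5.84 and 5.41 CPM in the parotid gland and 7.15, 3.99, 3.61 and 2.72 CPM in the submandibular gland, which overlapped. Car9 read 1.06, 3.28, 1.27 and 1.11 CPM in the parotid and 0.575, 0.524, 0.743 and 1.25 CPM in the submandibular epithelium, which overlapped, and 0.966, 1.04, 1.18 and 1.26 and 1.48, 1.6, 1.65 and 1.74 CPM in the mesenchymes. Its call in epithelium (adjusted p = 0.0437) was lost in 17 other settings, leaving out replicate 2 of the parotid group among them, with adjusted p up to 0.226. Bnip3l, at 0.23, was lost in 16 settings.

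In this comparison of epithelia 9 of 10 macrophage and leukocyte markers were also higher in the parotid group, summing to 18.7 to 28.6 CPM against 0.899 to 8.96 CPM, as were 5 of 10 mesenchymal markers, at 136 to 391 against 44.2 to 297 CPM. Of 10 endothelial markers 4 were higher and 1 lower, with sums of 10.3 to 20.6 and 12 to 16.6 CPM. Each of these markers had counts in both groups. Of the neuron, skeletal muscle and cartilage markers, 2 of 10, 1 of 10 and 3 of 9 were higher, the muscle marker Myf5 had no count in submandibular epithelium, and the erythroid markers summed to 59.7 to 495 and 7.7 to 739 CPM, which overlapped. Among all genes tested, 20.9% were called between the epithelia, 11.2% higher and 9.72% lower in the parotid gland. The part of the cells with these markers in the gland difference was not tested. Of the 15 proliferation genes 1 was called, higher, and their sums of 4328 to 4604 and 4332 to 4618 CPM overlapped. Without the libraries with the most erythroid counts, the number of genes called among the 38 was 18, while that among all genes went from 3801 to 1846.

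Parotid mesenchyme also had more RNA of these genes than submandibular mesenchyme. Here 21 of the 38 were higher and 4 lower, beside 34.5% of all genes called, 20.8% higher and 13.7% lower. The median log2 fold change was 0.43, and 0.036 over all genes. Among the enzymes 12 were higher and 2 lower with a median of 0.58, among Pdk1 and the transporters 3 higher and 1 lower, and among the hypoxia targets and HIF regulators 6 higher and 1 lower with a median of 0.28. With library totals alone as scaling, the median of all genes moved to -0.137 and that of the 38 to 0.25, and the calls became 15 higher and 7 lower. Under that scaling 37.4% of the calls over all genes were higher, against 60.3% with the scaling used elsewhere.

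Ldha, Eno1, Ldhb and Pfkfb3 were among the most different enzyme genes between the mesenchymes. Ldha, with the library values given above, was higher in parotid mesenchyme by a log2 fold change of 1.62 (SE 0.13, adjusted p = 1.03e-07), and Eno1 by 1.29 (SE 0.12, adjusted p = 5.08e-07). Ldhb was lower, with a log2 fold change of -1.74 (SE 0.16, adjusted p = 3.11e-07), and its 4 values in submandibular mesenchyme were all above those of parotid mesenchyme. Pfkfb3 read 30.9, 22.4, 31.2 and 31.3 CPM in the parotid mesenchyme and 7.91, 8.39, 11.8 and 10.5 CPM in the submandibular mesenchyme, apart by a log2 fold change of 1.59 (SE 0.29, adjusted p = 0.000411), and Pfkp was higher by 1.34. Pkm, Hk1, Gpi1, Pgk1 and Pgam1 were higher by 0.72, 0.72, 0.70, 0.65 and 0.51. Tpi1 and Gapdh, at 0.42 and 0.31, lost their calls under library totals (adjusted p = 0.0686 for Tpi1), and so did Pgam1 (adjusted p = 0.065). Pfkm was lower, at -0.48, and Hk2, Pfkl, Aldoa and Eno2, at -0.36, 0.24, 0.22 and -0.38, were not called. Aldoc, at 0.90, lost its call in 9 other settings.

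Slc16a3 and Slc16a1 were higher in parotid mesenchyme, by 1.75 (SE 0.27, adjusted p = 0.000113) and 0.90 (SE 0.13, adjusted p = 4.13e-05), while Slc2a3 was lower, at -1.76 (SE 0.28, adjusted p = 0.000125). Slc2a1 was not called, at 0.23, and Pdk1, at 0.39, lost its call in 4 other settings. Egln3 read 6.65, 8.55, 7.46 and 5.27 CPM in the parotid mesenchyme and 2.4, 2.45, 4.08 and 4.08 CPM in the submandibular mesenchyme, which did not overlap, and 10.6, 9.1, 8.25 and 6.41 CPM in the parotid and 7.84, 11.2, 12.9 and 8.58 CPM in the submandibular epithelium, which did. Its log2 fold change between the mesenchymes was 1.10 (SE 0.24, adjusted p = 0.00201). P4ha2, Vegfa, P4ha1 and Mxi1 were higher in parotid mesenchyme as they were in epithelium, by 0.87, 0.84, 0.68 and 0.53. Ankrd37 was higher, at 0.88, and Ddit4 lower, at -0.55, and these calls were lost in 6 and 7 other settings. Bnip3, Bnip3l, Egln1, Ndrg1, Adm, Car9, Hif1a and Kdm3a were not called, with log2 fold changes between -0.53 for Car9 and 0.43 for Egln1.

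Beside these differences, 9 of 10 skeletal muscle markers were higher in parotid mesenchyme, with sums of 384 to 1501 CPM against 177 to 362 CPM, and 5 of 10 neuron markers were higher and 3 lower, at 484 to 941 against 134 to 329 CPM. Of 9 cartilage markers tested 3 were higher and 4 lower, at 307 to 335 against 139.9 to 210.0 CPM. Of the 9 erythroid markers tested 1 was lower in parotid mesenchyme, and their sums were 1454 to 2194 CPM there and 3333 to 4185 CPM in the submandibular mesenchyme, without overlap. The 10 endothelial markers summed to 574 to 869.5 and 631 to 875 CPM, which overlapped. Of the 10 mesenchymal markers 2 were higher in parotid mesenchyme, and their sums of 19093 to 26596 and 12795 to 14778 CPM did not overlap. Of the 10 epithelial markers 1 was lower there, with sums of 13.4 to 40 and 43.7 to 59 CPM, also without overlap. Among all genes tested, 34.5% were called between the mesenchymes, 20.8% higher and 13.7% lower in the parotid gland. The part of the cells with these markers in the differences of Slc2a3, Ldhb and the other genes was not tested. Replicate 4 of parotid mesenchyme had the fewest muscle marker counts of its group, 384 CPM against at least 1314 in the others. That is also above the 177 to 362 CPM of the submandibular mesenchyme. Its Ldha level, 810.4 CPM, was the lowest of its group, and whether muscle had a part in it was not tested.

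The 2 comparisons of glands share no library. Both, however, set the parotid block of library numbers against the submandibular one. In both, 15 genes were higher in the parotid gland, 6 were called in neither, and Slc2a3 was called in opposite directions. The overlap over all genes was not counted, so this one is not shown to be particular to the 38. The 15 were Hk1, Gpi1, Pfkp, Pfkfb3, Aldoc, Tpi1, Pgk1, Eno1, Pkm and Ldha of the enzymes, Slc16a3 of the transporters, and Vegfa, P4ha1, P4ha2 and Mxi1 of the hypoxia targets. A test of the interaction, the gland difference in epithelium minus that in mesenchyme, called 10 genes of the 38 higher and 5 lower, beside 20.9% of all genes, 8.67% higher and 12.2% lower. The median interaction was 0.043 for the 38 and -0.045 for all genes. With library totals alone as scaling the medians were 0.19 and 0.099, the calls 12 higher and 4 lower, and 59.8% of the calls over all genes were higher, against 41.5% with the scaling used elsewhere. Leaving out single libraries gave 11 to 17 genes called.

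The largest interaction was that of Slc2a3, 3.73 (SE 0.41, adjusted p = 6.35e-06) by edgeR's test: it was higher in parotid than in submandibular epithelium and lower in parotid than in submandibular mesenchyme. For Ldhb the interaction was 1.55 (SE 0.22, adjusted p = 7.07e-05), with a gland difference in mesenchyme and none called in epithelium. For Ldha it was -1.10 (SE 0.18, adjusted p = 0.000372), as the gland difference of 1.62 in mesenchyme exceeded that of 0.52 in epithelium. Adm had -2.73 (SE 0.56, adjusted p = 0.00219), with a gland difference called in epithelium, where parotid was lower, and not in mesenchyme (0.28). Eno2 and Car9 had interactions of 1.65 (SE 0.36, adjusted p = 0.00355) and 1.65 (SE 0.53, adjusted p = 0.034), and the call for Car9 was lost in 11 other settings. Egln3 had -1.34 (SE 0.34, adjusted p = 0.00878) and Slc16a1 -0.92 (SE 0.18, adjusted p = 0.00147), both with a gland difference called in mesenchyme and none called in epithelium. Pfkl, Pfkm, Hk2, Aldoa, Ddit4 and Bnip3l were also called higher and Eno1 lower, between 0.34 for Bnip3l and 0.95 for Ddit4 on the upper side and at -0.63 for Eno1. Of these the calls for Hk2, Bnip3l, Aldoa and Eno1 were lost in 12, 11, 4 and 1 other settings. The other 23 genes were not called, among them Bnip3 at 0.72 and Ndrg1 at 1.15, which were called in 8 and 4 other settings.

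**Figure D4:**
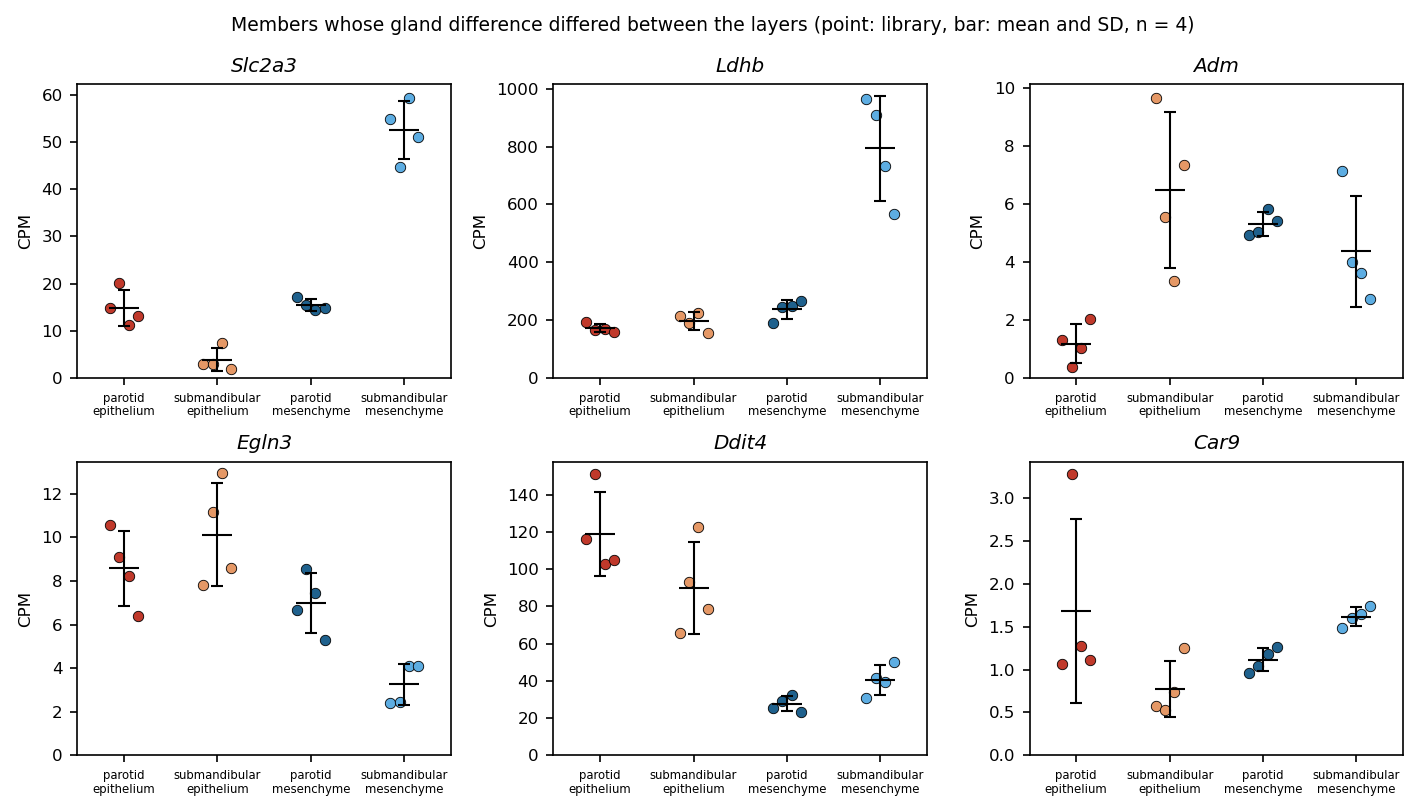
CPM (y axes) of 6 genes with a called interaction in each library of the 4 groups (x axes), with bars for the mean and SD. Slc2a3 and Ldhb are highest in submandibular mesenchyme at 52.5 and 793 CPM, Adm is lowest in parotid epithelium at 1.19 CPM, and 1 parotid epithelial library of Car9 lies above the others of its group.

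The glucose transporter pair showed this crossing within libraries too. The ratio of Slc2a1 to Slc2a3 was 12.5 to 16.4 in parotid epithelium, 31.4 to 67.8 in submandibular epithelium, 4.25 to 5.31 in parotid mesenchyme and 0.979 to 1.54 in submandibular mesenchyme. The 4 groups did not overlap, and the ratio was 3.39-fold higher in submandibular than in parotid epithelium and 3.99-fold higher in parotid than in submandibular mesenchyme (exact permutation test, adjusted p = 0.0394 for each). Slc16a1 to Slc16a3, by contrast, was 2.62-fold higher in submandibular than in parotid epithelium (exact permutation test, adjusted p = 0.0394) and was not called between the mesenchymes (adjusted p = 0.0693) or between layers. P4ha1 to P4ha2 was 1.67-fold higher in submandibular than in parotid epithelium (exact permutation test, adjusted p = 0.0394). It was also 1.59-fold and 2.29-fold higher in epithelium than in mesenchyme of the parotid and submandibular gland (same test, adjusted p = 0.0394 for each). Between the mesenchymes it was not called (adjusted p = 0.134). Egln1 to Egln3 was apart in 1 comparison, 2.61-fold higher in submandibular mesenchyme than in its epithelium (exact permutation test, adjusted p = 0.0394).

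Genes next to these in metabolism went in both directions. Over all genes, 20.9% were called between the epithelia, 34.5% between the mesenchymes, 64.9% between the parotid and 67% between the submandibular layers. Of 19 further genes of glycolysis and gluconeogenesis tested, 3 were higher and 3 lower in parotid against submandibular epithelium, 4 and 3 between the mesenchymes, 3 and 7 between the parotid layers (epithelium against mesenchyme), and 5 and 7 between the submandibular layers. Gpd2, a mitochondrial enzyme that reoxidises cytosolic NADH, was at 101 ± 13.2 CPM in the parotid and 56.8 ± 5.85 CPM in the submandibular epithelium, against 20.8 ± 2.27 and 25.1 ± 4.61 CPM in the mesenchymes. Pgam2, the muscle phosphoglycerate mutase, was higher in parotid than in submandibular mesenchyme (15.8 against 3.36 CPM). Muscle markers were higher there too, and their part in this difference was not tested. Of 13 genes for pyruvate entry to mitochondria, 8 were higher and 5 lower in the epithelium of the parotid gland and 6 and 5 in that of the submandibular gland, against mesenchyme. Pdp1, the phosphatase that reverses the action of the kinases such as Pdk1, was lower in both epithelia, at 23.6 and 25.5 CPM against 93 and 156 CPM. Between the glands, 1 of the 13 was higher and 1 lower in epithelium, and 4 and 3 in mesenchyme. Of the 8 genes of the pentose phosphate pathway, 5 were higher and 2 lower in the epithelium than in the mesenchyme of the parotid gland, 6 and 1 in the submandibular gland, and 1 and 4 were called, all higher in the parotid gland, between the epithelia and between the mesenchymes. Tkt, for transketolase, was higher in the parotid gland in both layers, by 0.34 and 0.45.

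Of 10 further genes of the HIF machinery, 2 were higher in parotid than in submandibular epithelium, 2 were higher and 1 lower between the mesenchymes, and 1 was higher and 4 lower in parotid and 2 higher and 5 lower in submandibular epithelium against mesenchyme. Over all genes, 20.9%, 34.5%, 64.9% and 67% were called in these comparisons, in that order. Epas1, which encodes another HIF alpha subunit and is known from endothelium, was at 1.24 ± 0.415 and 2.46 ± 1.16 CPM in the epithelia and 30.4 ± 4.53 and 34.4 ± 13.7 CPM in the mesenchymes. The mesenchymes also carried the endothelial markers, whose part in this difference was not tested. Cited2, which competes with HIF for its coactivators, was higher in the parotid gland in both layers, by 0.85 and 1.26, and lower in both epithelia, at -2.73 and -2.32. Of 30 further hypoxia-responsive genes, 9 were higher and 1 lower in parotid epithelium and 9 and 4 in parotid mesenchyme against the submandibular gland, and 10 and 15 in parotid and 9 and 15 in submandibular epithelium against mesenchyme. Stc1, a secreted glycoprotein, read 183, 374, 245 and 495 CPM in the parotid and 32.3, 25.5, 24.2 and 26.1 CPM in the submandibular mesenchyme, without overlap. Lox, the collagen crosslinking enzyme, was at 546 ± 79.3 and 54.6 ± 5.81 CPM in the same groups, while Angptl4, a lipase inhibitor, was lower in parotid mesenchyme at 49.1 ± 6.47 against 143 ± 14.8 CPM. Car12, a carbonic anhydrase like Car9, was at 603 ± 53.3 and 587 ± 109 CPM in the epithelia and 7.91 ± 5.32 and 19.2 ± 8.73 CPM in the mesenchymes.

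Promoter sequences were read for 35 of the 38 genes, as the 250 bases before each RefSeq transcript start on build GRCm38.p6. Motifs were searched on both strands as ACGTG and GCGTG, where the palindrome CACGTG holds ACGTG on each strand and so counts on both. At least 1 ACGTG lay in 26 of 53 windows of these genes (49.06%) and in 16.57% of 32851 windows of all genes. GCGTG lay in 27 windows (50.94%) against 28.16%, and either motif in 41 (77.36%) against 38.6%. Windows of close starts overlap and can hold the same site, as for Aldoa, so they are not independent. By gene, 22 of the 35 had ACGTG in at least 1 window, and the share by gene was not counted over all genes. The windows of these genes were also richer in CG dinucleotides, with a median of 14 against 6, and had a mean GC content of 61.46% against 53.22%. Both motifs contain CG, and these shares were not compared further. A match is a description of letters and says nothing of binding. ACGTG was found on both sides of the layer difference. Among the genes called higher in both epithelia, Aldoc, Eno1, Gapdh, Kdm3a, Pdk1 and Pfkl had GCGTG without ACGTG, and Gpi1 and Tpi1 had neither. The others had ACGTG in a window, as did P4ha2, Pfkm and Vegfa, which were lower in both epithelia. Hk1, Ldhb and Pfkp, also lower in both, had GCGTG without ACGTG, and Eno2 had neither. Ldha and Ldhb are shown because they differed between the mesenchymes in opposite directions. Hk2, Pgk1 and Slc16a1 are examples of genes with ACGTG that were called between layers. Each has the matched letters in capitals, written 5′ to 3′ on the gene's strand.
Ldha, chr7:46845554-46845803, plus strand, 5 ACGTG matches: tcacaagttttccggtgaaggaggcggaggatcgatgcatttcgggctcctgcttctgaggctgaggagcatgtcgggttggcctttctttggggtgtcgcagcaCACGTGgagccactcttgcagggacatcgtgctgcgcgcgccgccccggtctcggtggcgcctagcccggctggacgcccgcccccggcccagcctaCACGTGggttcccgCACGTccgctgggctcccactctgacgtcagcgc
Ldhb, chr6:142507958-142508207, minus strand, 1 GCGTG match: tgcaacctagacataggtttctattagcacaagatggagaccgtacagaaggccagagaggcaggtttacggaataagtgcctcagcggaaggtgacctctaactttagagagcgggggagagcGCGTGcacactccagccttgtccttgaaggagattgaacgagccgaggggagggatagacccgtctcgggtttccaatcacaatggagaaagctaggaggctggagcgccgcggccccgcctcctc
Pgk1, chrX:106186850-106187099, plus strand, 2 ACGTG matches: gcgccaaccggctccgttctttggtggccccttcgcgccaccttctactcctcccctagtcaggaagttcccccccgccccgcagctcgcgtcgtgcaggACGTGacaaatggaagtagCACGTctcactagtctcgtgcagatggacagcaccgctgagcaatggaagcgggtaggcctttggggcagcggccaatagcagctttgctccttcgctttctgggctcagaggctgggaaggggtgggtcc
Hk2, chr6:82774455-82774704, minus strand, 2 ACGTG matches: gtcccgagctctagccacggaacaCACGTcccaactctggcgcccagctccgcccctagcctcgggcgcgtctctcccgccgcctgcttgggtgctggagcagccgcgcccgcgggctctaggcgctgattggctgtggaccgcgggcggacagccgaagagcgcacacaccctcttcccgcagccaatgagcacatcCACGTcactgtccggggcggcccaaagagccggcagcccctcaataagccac
Slc16a1, chr3:104638414-104638663, plus strand, 2 ACGTG and 2 GCGTG matches: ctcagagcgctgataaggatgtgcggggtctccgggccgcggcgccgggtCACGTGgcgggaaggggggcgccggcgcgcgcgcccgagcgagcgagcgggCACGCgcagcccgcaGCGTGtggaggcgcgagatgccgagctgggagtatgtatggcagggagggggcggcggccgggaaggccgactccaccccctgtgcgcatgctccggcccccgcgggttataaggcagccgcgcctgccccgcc
None of the 5 windows overlapped an exon annotated in GENCODE M21. The Ldhb window held no ACGTG, and the second RefSeq start of Ldha, at a window of chr7:46846832-46847081, held none and 1 GCGTG. The ratio of Ldha to Ldhb counts described above is of whole genes and does not tell these starts apart.

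Near-identical copies limit the exactness of some levels. Eno1b, a processed copy of Eno1, took 8.94% to 10.8% of the counts of Eno1 and Eno1b together in every library, and how the counting step divided reads between them is not given in the sources used here. Ldhb-ps held up to 5.41% of the sum with Ldhb and Gpi-ps 1.07% to 2.87% of the sum with Gpi1. The Ldha, Ldhb, Gpi1, Gapdh, Pgk1, Pgam1, Tpi1 and Bnip3l levels are to be read with this limit, since each has a copy named in the deposited tables.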

How the data were processed

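RNA of 16 libraries was measured by bulk sequencing. Per the labels' protocols, full-length cDNA was made with the SMART-Seq v4 kit and libraries with Nextera XT, which do not mark strand, so genes that overlap on opposite strands cannot be told apart. Per the submitters' processing notes, STAR 2.5.2a, edgeR and the mouse build GRCm38 (mm10) were used. The sources used here do not give the program that counted the reads or its annotation. The authors deposited a table of whole-number read counts per gene, which was the input for every test. They also deposited a normalised signal table, CPM after TMM scaling (trimmed mean of M values), used here only for gene symbols and as a check, where the largest relative difference from the recomputed CPM was 4.26%. A filtered version of the count table was not used.

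Library sizes and tests used gene features, without the 92 spike-ins. Genes were kept by edgeR's filterByExpr with the 4 groups, which left 18191 genes and at least 99.9% of the counts of each library. TMM factors lay between 0.926 and 1.09. With edgeR 4.0.16 (R 4.3.3), 1 quasi-likelihood model with a coefficient per group covered the 16 libraries, and 4 contrasts and the interaction were tested with Benjamini-Hochberg adjustment over all genes tested at 0.05. The fold changes of edgeR carry a prior count of 0.125. Ratios were formed from counts with 0.5 added and tested by exact permutation. The fit was also run on simulated data in which all groups shared the same gene means, except for genes changed in parotid epithelium. This setting is simpler than the data, where most genes tested were called between the layers, and no result rests on it. Replicates of a group differed by more than counting noise in every pair of libraries. Lengths per kilobase are the union of exons in GENCODE M21, and motifs were searched in RefSeq promoter windows.

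All 38 genes are accounted for. Values in every library are given for the called genes with the 6 largest absolute log2 fold changes of each comparison of groups and of the interaction, and from each other gene list up to 4 called genes per comparison may be named. Stc1 is also given by library. The 38 genes, the 14 other gene lists (5 of metabolism and hypoxia, 9 of cell type markers and proliferation) and the tests were chosen with earlier results of these data known. Alternatives were other scalings (RLE size factors, library totals, TMM on all gene features, the last chosen after seeing the data), other filters, the 8 libraries compared alone, a replicate block, DESeq2 1.42.0, voom in limma 3.58.1, leaving out each library, and leaving out the libraries with most erythroid counts.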

Additional observations from a re-analysis of the deposited data

Results flagged for a closer look

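Within single groups, 6 of 152 sets of 4 libraries (38 genes in 4 groups) had 1 library far from the other 3 by Dixon's test, where chance gives about 1 in 20. In parotid mesenchyme, replicate 1 was high for Hk2, at 32.7 CPM against 17.1 to 19.7 CPM in the others, and for Gpi1, at 211 against 197 to 198 CPM. Replicate 2 of that group was low for Pfkfb3, at 22.4 against 30.9 to 31.3 CPM. Replicate 3 of submandibular mesenchyme was high for Tpi1, at 366 against 327 to 332 CPM. In parotid epithelium, replicate 1 was high for P4ha2, at 46 against 32.9 to 33.7 CPM, and replicate 2 for Car9, at 3.28 against 1.06 to 1.27 CPM.

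The gland difference itself differed between the layers for 15 genes by edgeR's interaction test (epithelium minus mesenchyme, log2 scale). It was higher in epithelium for Slc2a3 (3.73), Eno2 (1.65), Car9 (1.65), Ldhb (1.55), Ddit4 (0.95), Pfkm (0.79), Pfkl (0.74), Hk2 (0.72), Aldoa (0.59) and Bnip3l (0.34). It was lower in epithelium for Adm (-2.73), Egln3 (-1.34), Ldha (-1.10), Slc16a1 (-0.92) and Eno1 (-0.63). Without replicate 1 of parotid mesenchyme, whose Hk2 level stood apart, the interaction of Hk2 was 0.996 (adjusted p = 0.000936).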

How the results depend on the processing

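No log2 fold change of the 38 genes that was called changed direction in any setting. Of 124 calls over the 5 comparisons, 104 held in every setting run and 20 were lost in at least 1, while 22 of the 66 values not called were called in some setting. For all genes together, the epithelia of the 2 glands differed in 1846 genes without the libraries with the most erythroid counts, against 3801 in all, and in 2452 to 4540 with single libraries left out, the lowest without replicate 1 of submandibular epithelium. Genes of the 38 called lower in parotid than in submandibular mesenchyme went from 4 to 7 with library totals as scaling. Leaving out single libraries gave 6 to 12 of the 38 called higher in the interaction, against 10, with 6 when replicate 2 of parotid epithelium or replicate 2 of submandibular mesenchyme was left out; the cause was not tested. With library totals the median over all genes also moved to -0.104 between the submandibular layers. All 40 ratio differences kept their direction with 5 in place of 0.5 counts added. With single libraries left out they did too, except 2 that were not called, both between the parotid layers: Slc16a1/Slc16a3, at -0.203 to 0.217, and Egln1/Egln3, at -0.240 to 0.295 on the log2 scale.

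With the replicate block, 24 of the 38 genes were called between the epithelia, 25 between the mesenchymes, 30 between the parotid and 31 between the submandibular layers, and 15 in the interaction, against 23, 25, 30, 31 and 15 without it. The labels do not say that a replicate number marks a shared litter or day, and the deviations of libraries with the same number correlated by -0.117 to 0.218, so the numbers were not taken to pair the libraries. In 4 of 16 cases a library correlated best with the one of its own number.

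Depth limits Car9, Adm, Eno2 in epithelium and Aldoc in mesenchyme, since these were at few CPM. Slc2a3, Pfkp and Ndrg1 in submandibular epithelium share this limit, at means of 3.85, 3.87 and 5.17 CPM. So do Egln3 and Ankrd37 in submandibular mesenchyme, at 3.25 and 3.70 CPM.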
